A study of Mus musculus with 2 samples.

Results

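Iron storage and uptake genes were described in the heart of the mouse embryo. The 10 members, Fth1, Ftl1, Tfrc, Trf, Slc11a2, Slc40a1, Slc25a37, Aco1, Ireb2 and Hmox1, were chosen by gene symbol and not by their level. All 10 were found among the 43346 mouse genes of the gene tables, and they held 49 rows of the transcript tables. Total RNA had been sequenced from hearts at embryonic day 10.5 of strain B6NCrl, in 1 group of 2 libraries. Replicate 1 was a pool of hearts from 69 embryos and replicate 2 a pool from 51, each of both sexes and healthy, with no treatment or genotype recorded. Each library was made from 10 ng of RNA longer than 200 nt with ERCC spike-ins. Because there is 1 group, no condition could be compared and no p-value was computed, and an SD (n = 2) measures the spread between the pools.

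Cells take up iron bound to transferrin through the transferrin receptor, move it out of endosomes, and use it for heme and iron-sulfur clusters or store it inside the ferritin shell. Ferroportin is the exporter. A pair of iron regulatory proteins, the products of Aco1 and Ireb2, bind a short RNA hairpin called the iron-responsive element when iron is low. Bound near the start of an mRNA the proteins block translation, and bound in the 3′ UTR of the receptor mRNA they protect it from decay. RNA levels therefore do not give protein levels for these genes. The early embryonic heart holds beating muscle and primitive red cells that are making hemoglobin.

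The hairpins are shown because they are the sequence that joins storage, uptake and export genes. Transcripts of the members in GENCODE M21 (GRCm38, the same assembly as mm10) were searched for a C, 5 stem bases, the loop CAGTGN and 5 bases that pair with the stem, with G-T pairs allowed. Only the RNA's own strand was read, and no overlap with other motifs was examined. Of 60 transcripts of the 10 members, those of 4 genes held such a match. Allowing 1 extra base in the 3′ side of the stem, an alternative added after the data were seen, gave a match in Slc11a2 as well. The windows below have 30 bases, are written 5′ to 3′ as DNA on the gene's strand, and have the 6 loop bases in capitals.
Fth1, 5′ UTR, chr19:9982732-9982761, plus strand: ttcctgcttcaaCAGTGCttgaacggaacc
Ftl1, 5′ UTR, chr7:45459778-45459807, minus strand: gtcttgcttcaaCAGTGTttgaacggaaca
Slc40a1, 5′ UTR, chr1:45925464-45925493, minus strand: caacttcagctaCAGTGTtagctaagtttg
Tfrc, 3′ UTR, chr16:32631219-32631248, plus strand: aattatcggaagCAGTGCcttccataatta
Tfrc, 3′ UTR, chr16:32631598-32631627, plus strand: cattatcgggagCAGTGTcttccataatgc
Tfrc, 3′ UTR, chr16:32631663-32631692, plus strand: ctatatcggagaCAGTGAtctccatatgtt
Tfrc, 3′ UTR, chr16:32631710-32631739, plus strand: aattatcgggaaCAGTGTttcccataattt
Slc11a2, 3′ UTR, chr15:100395152-100395181, minus strand: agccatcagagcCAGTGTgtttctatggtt

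The ferritin windows were identical at 26 of 30 bases, and the 4 receptor windows lay close together in 1 UTR. Across all genes, 0.148% of the 20916 with an annotated 5′ UTR and 0.594% of the 21707 with an annotated 3′ UTR held the strict match. With the extra base allowed, the share was 1.65% of genes with a 3′ UTR. Such a match is a description of letters and not a measured binding site. Trf, Slc25a37, Aco1, Ireb2 and Hmox1 had no match in the annotated transcripts searched.

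The libraries held 43295923 and 39786163 expected counts on mouse genes, where an expected count is an estimate of the reads belonging to a gene. TPM, the length-scaled abundance used below for levels, has the same sum in each library over all features. The pools differed in tissue markers. All 10 heart muscle markers were detected at 1 TPM or more in both libraries and all 10 were higher in replicate 2, with summed TPM of 20876 and 35057 (Actc1, cardiac actin, 6437 and 11048, and Myl7, an atrial myosin light chain, 5785 and 6877). All 11 liver markers were higher in replicate 1, with summed TPM of 1372 and 55.3 (Afp, alpha-fetoprotein, 737 and 27.6, and Apoa2, an apolipoprotein, 262 and 13.8). All 10 macrophage markers were higher in replicate 1, with summed TPM of 32.0 and 11.9 (the complement gene C1qb 11.2 and 3.8, and Csf1r, a growth factor receptor, 3.8 and 1.9). Of 10 red cell markers 9 were higher in replicate 2, with summed TPM of 28665 and 35448 (the embryonic globins Hbb-y, 13858 and 18907, and Hbb-bh1, 7391 and 8358). These counts by direction use the TMM-scaled counts described below, and with spike-in scaling 9 of 10 macrophage markers were higher in replicate 1 and 10 of 10 red cell markers in replicate 2. No marker of these lists was at 0 in both libraries. Detected at 1 TPM or more in both were 7 of the 11 liver markers, 5 of the 10 macrophage markers and all 10 red cell markers. The macrophage markers Adgre1, Fcgr1 and Ptprc, named after their values were seen, had deposited credibility intervals of TPM that overlapped between the libraries. In such pools of whole tissue, a different number of cells of a type and a different amount of RNA per cell cannot be told apart.

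All 10 iron genes were detected in both libraries, over a range from 4003 TPM for Ftl1 to 10.8 TPM for Slc40a1 (means of the pools). The ferritin chains stood far above the rest and together made up 92.4% and 96.0% of the members' summed TPM. They also made up 0.692% and 0.666% of the TPM of all nuclear protein-coding genes. In order of mean TPM the genes were Ftl1, Fth1, Trf, Tfrc, Slc25a37, Aco1, Ireb2, Hmox1, Slc11a2 and Slc40a1. Of the 9 neighbouring pairs in that order, Trf and Tfrc, Slc25a37 and Aco1, and Hmox1 and Slc11a2 had ranges over the libraries that overlapped, and the other 6 did not.

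**Figure D1:**
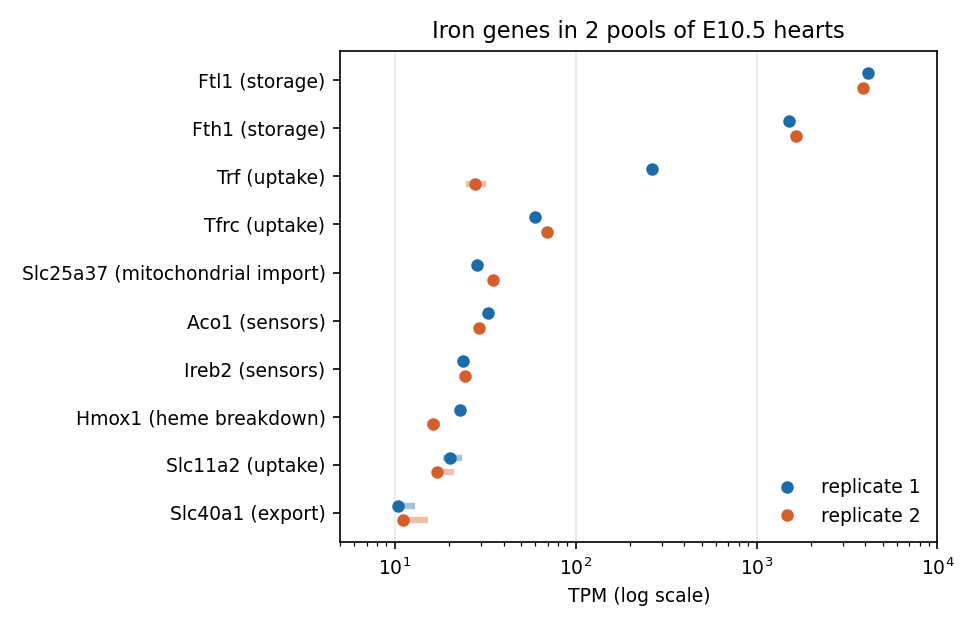
TPM of the 10 iron genes on a log axis, 1 point for each library (replicate 1, 69 embryos, blue; replicate 2, 51 embryos, orange), with pale bars for the deposited credibility interval and the genes in order of mean TPM. The ferritins Ftl1 and Fth1 lie above 1500 TPM in both libraries, and Trf is the gene whose points lie farthest apart (264.6 and 28.0 TPM).

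Storage was led by Ftl1, the ferritin light chain, whose product helps form the iron core (ENSMUSG00000050708.10, chromosome 7, 45457944 to 45459884, minus strand). Its level was 4119.9 TPM in the pool of 69 and 3887 TPM in the pool of 51, on 108296 and 92259 expected counts, and ranked 9 of 21461 nuclear protein-coding genes. Its libraries lay close together (4003 ± 165 TPM, SD, n = 2).

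Fth1, the ferritin heavy chain, carries the site that oxidises iron on entry (ENSMUSG00000024661.6, chromosome 19, 9980598 to 9985098, plus strand). Fth1 stood at 1514 and 1645 TPM, on 35314 and 34613 expected counts, and ranked 42. The light chain was above the heavy chain in both pools, 2.72-fold in replicate 1 and 2.36-fold in replicate 2 by TPM. The log2 ratio of Fth1 over Ftl1 was -1.34 ± 0.14 (SD, n = 2).

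Reads of ferritin are shared with copies, so these levels are uncertain to that extent. Copies were listed only by a symbol that starts with Ftl or Fth, so copies under other names were not examined. Of the 13 listed, 9 had no counts in either library, all of them genes or pseudogenes of the Fthl17 family. Ftl1-ps1 held the most among the other 4, with 1374 and 1155 expected counts against the 108296 and 92259 of Ftl1. Gm22133, a microRNA gene inside Ftl1 on the same strand, was given 1321 and 1119 expected counts, and its listed 4341 and 4079.5 TPM rest on a very short effective length.

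Uptake genes covered a wide range. Tfrc encodes transferrin receptor 1, which brings iron-loaded transferrin into the cell (ENSMUSG00000022797.11, chromosome 16, 32608920 to 32632794, plus strand). Tfrc stood at 60.0 and 69.6 TPM on 7284 and 7386 expected counts. It was the most abundant membrane protein gene of the set in both libraries. Tfr2, the second receptor, known from liver and red cell precursors, stood at 2.74 and 2.31 TPM, so that Tfrc was 21.9-fold and 30.1-fold above it.

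Slc11a2 encodes DMT1, which carries ferrous iron across membranes and out of endosomes (ENSMUSG00000023030.12, chromosome 15, 100387898 to 100425072, minus strand). It stood at 20.2 and 17.2 TPM on 1737 and 1562 expected counts. Slc39a14, a zinc transporter family member that also carries iron not bound to transferrin, was lower, at 7.38 and 5.44 TPM. Slc11a2 was therefore 2.74-fold and 3.16-fold above Slc39a14. Slc39a8, a related transporter of the same list that was named after its values were seen, stood higher than Slc11a2, at 41.0 and 40.4 TPM.

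Trf encodes transferrin, the iron carrier of plasma, which is made mainly by the liver (ENSMUSG00000032554.11, chromosome 9, 103204001 to 103230444, minus strand). Its level was 264.6 TPM in the first pool and 28.0 TPM in the second, on 15347 and 1475 expected counts. Replicate 1 was the high library, and the deposited credibility intervals of TPM, 251.0 to 271.4 and 24.7 to 31.9, were far apart. The SD over the pools exceeded the mean (146 ± 167 TPM, n = 2). Gm20425, a protein-coding gene that overlaps Trf on the same strand, was given 58.6 and 0 expected counts. Cp, ceruloplasmin, a plasma ferroxidase, was near the limit of detection at 0.240 and 0.330 TPM, on 9 and 23 expected counts. By deposited TPM Trf was 84.7-fold above Cp in replicate 2 and 1103-fold above it in replicate 1. These folds are imprecise, since the deposited intervals of Cp, 0.401 to 1.20 in replicate 1 and 0.552 to 1.40 in replicate 2, lie above its TPM. The mean log2 ratio of Trf over Cp was 8.26 by TPM, 6.63 by posterior mean TPM and 6.09 with a pseudocount of 1 TPM.

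Export was represented by Slc40a1, or ferroportin, the cellular iron exporter (ENSMUSG00000025993.6, chromosome 1, 45908068 to 45926523, minus strand). Slc40a1 stood at 10.4 and 11.1 TPM on 1012 and 825 expected counts, the lowest of the members in both libraries. The uptake receptor Tfrc was 5.77-fold and 6.26-fold above it. The log2 ratio of Tfrc over Slc40a1 by TPM was 2.59 ± 0.08 (SD, n = 2), the smallest SD of the 9 gene pairs. By expected counts the pair was less steady, since Tfrc went from 7284 to 7386 and Slc40a1 from 1012 to 825.

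Import into mitochondria was represented by Slc25a37, or mitoferrin 1, which supplies iron for heme in red cell precursors (ENSMUSG00000034248.7, chromosome 14, 69241848 to 69285112, minus strand). Slc25a37 stood at 28.5 and 35.1 TPM on 3758 and 4226 expected counts. Slc25a28, or mitoferrin 2, the widely expressed paralog, stood at 8.43 and 5.95 TPM. Slc25a37 was 3.38-fold above it in replicate 1 and 5.90-fold in replicate 2.

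Sensors were at moderate and similar levels. Aco1 encodes iron regulatory protein 1, which is a cytosolic aconitase when it holds an iron-sulfur cluster (ENSMUSG00000028405.9, chromosome 4, 40143081 to 40198338, plus strand). It stood at 32.9 and 29.3 TPM on 3616 and 2924 expected counts. Ireb2 encodes iron regulatory protein 2, which is degraded when iron is plentiful (ENSMUSG00000032293.7, chromosome 9, 54863789 to 54912530, plus strand). It stood at 23.9 and 24.4 TPM on 4155 and 3816 expected counts. By TPM, Aco1 was 1.37-fold and 1.20-fold above Ireb2, with ranges that did not overlap. When expected counts were compared without regard to length, the order turned, with a log2 ratio of -0.29 where TPM gave 0.36 ± 0.14 (SD, n = 2).

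Heme breakdown was represented by Hmox1, the inducible heme oxygenase that frees iron from heme (ENSMUSG00000005413.7, chromosome 8, 75093621 to 75100589, plus strand). Its level was 23.1 and 16.3 TPM in replicates 1 and 2, on 1056 and 675 expected counts. Hmox2, the constitutive enzyme, stood at 86.2 and 85.0 TPM, 3.73-fold and 5.21-fold above Hmox1.

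**Figure D2:**
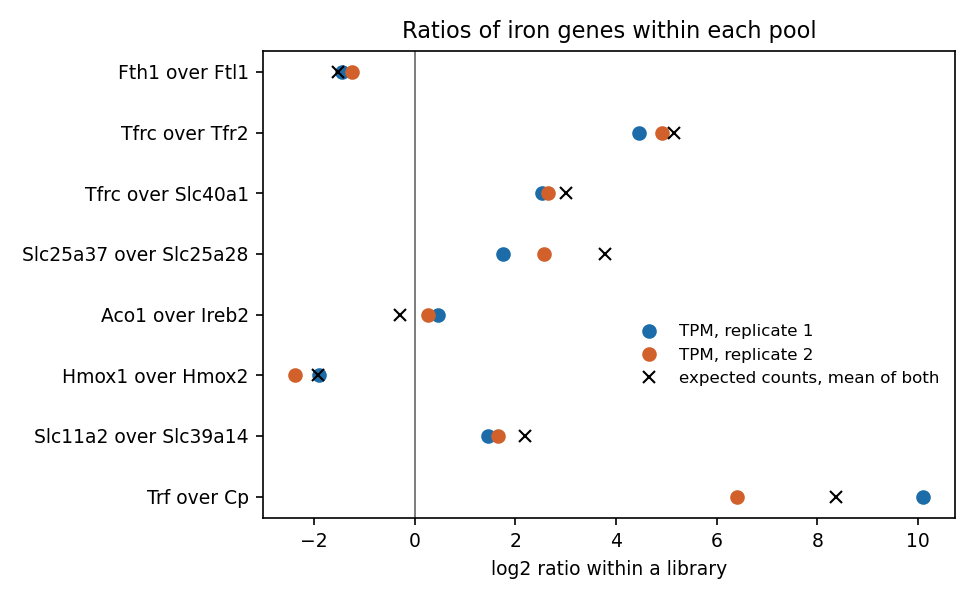
Log2 ratio within a library for 8 gene pairs, with points for TPM in replicate 1 (blue) and replicate 2 (orange), a cross for the mean of both libraries by expected counts, and a line at 0 for equal levels. By TPM, Tfrc over Slc40a1 is 2.53 and 2.65, Fth1 over Ftl1 is -1.44 and -1.24 and Trf over Cp is 10.11 and 6.40, while for Aco1 over Ireb2 the cross at -0.29 lies across 0 from the points.

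Differences between the pools were expressed as log2 ratios of replicate 2 over replicate 1 of scaled expected counts. A gene was counted as different at a mean count of at least 50, a ratio of at least 2-fold and deposited TPM intervals that did not overlap. Of 14124 genes at that count, 671 (4.75%) were so higher in replicate 1 and 326 (2.31%) in replicate 2. Scaling to the ERCC spike-ins moved the median of all genes by 0.32 on the log2 scale and changed these numbers to 436 higher in replicate 1 and 860 in replicate 2. Of the 10 members, 1 was higher in replicate 1 by this rule, which was Trf, and 0 were higher in replicate 2. Intervals that did not overlap at any fold were common, in 52.3% of the 14124 genes and in 7 of the 10 members.

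Trf was 8.75-fold higher in replicate 1, a log2 ratio of -3.13 with a counting interval (exact binomial, 95%) of -3.21 to -3.05. Of the 14124 genes, 0.715% had a larger ratio in either direction. The ratio passed the same rule under all 5 other scalings and count settings tried (-3.24 to -2.81). The 11 liver markers differed in the same direction by more, with a median of -4.64 and a range of -6.68 to -4.11. Trf was equal to 19.3% of their summed TPM in replicate 1 and to 50.6% in replicate 2, and Trf over Afp was 0.359 and 1.01. The part of liver RNA in the level of Trf was not tested. Without Trf, the members' summed TPM was 5832 and 5735.

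The other 9 members lay within 0.42 of equality on the log2 scale, where the 10th to 90th percentile of the 14124 genes ran from -0.58 to 0.55. The median of all 10 members was 0.06, with 6 higher in replicate 2 and 4 higher in replicate 1, beside 0.01 for all 14124 genes. With deposited TPM the members' median was -0.03 and 5 lay on either side, and with spike-in scaling it was 0.38 and 8 were higher in replicate 2. Slc25a37 was 1.34-fold higher in replicate 2 (0.42, counting interval 0.35 to 0.48), and 29.4% of genes had a larger ratio. Tfrc was 1.20-fold higher in replicate 2 (0.27, interval 0.22 to 0.32), and 46.2% of genes had a larger ratio. Both lay in the direction of the red cell markers (median 0.32) and of the heart muscle markers (median 0.89), and the part of these cells in the ratios was not tested. Hmox1 was 1.32-fold higher in replicate 1 (-0.40, interval -0.54 to -0.26), the direction of the macrophage markers (median -1.21) and of the liver markers. Their part in Hmox1 was not tested either, and with spike-in scaling the ratio of Hmox1 was -0.07.

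The ferritin chains had log2 ratios of 0.02 for Ftl1 and 0.22 for Fth1, and 95.8% and 53.9% of genes had a larger ratio. With spike-in scaling they were 0.34 and 0.54, and with deposited TPM -0.08 and 0.12. Ireb2 had a ratio of 0.13. The ratio of Slc11a2 was 0.10 and turned to -0.23 with deposited TPM. That of Slc40a1 was -0.05 and turned to 0.09 with deposited TPM and 0.28 with spike-in scaling. That of Aco1 was -0.06 and turned to 0.27 with spike-in scaling. Deposited TPM moved the median of all genes by -0.10, and spike-in scaling by the 0.32 given above. Spike-in scaling uses the same factor for all genes of a library, so its moves of Slc40a1 and Aco1 equal the common shift by design. Of the turns with deposited TPM, that of Ftl1 is about as large as the common shift, and those of Slc11a2 and Slc40a1 are not.

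**Figure D3:**
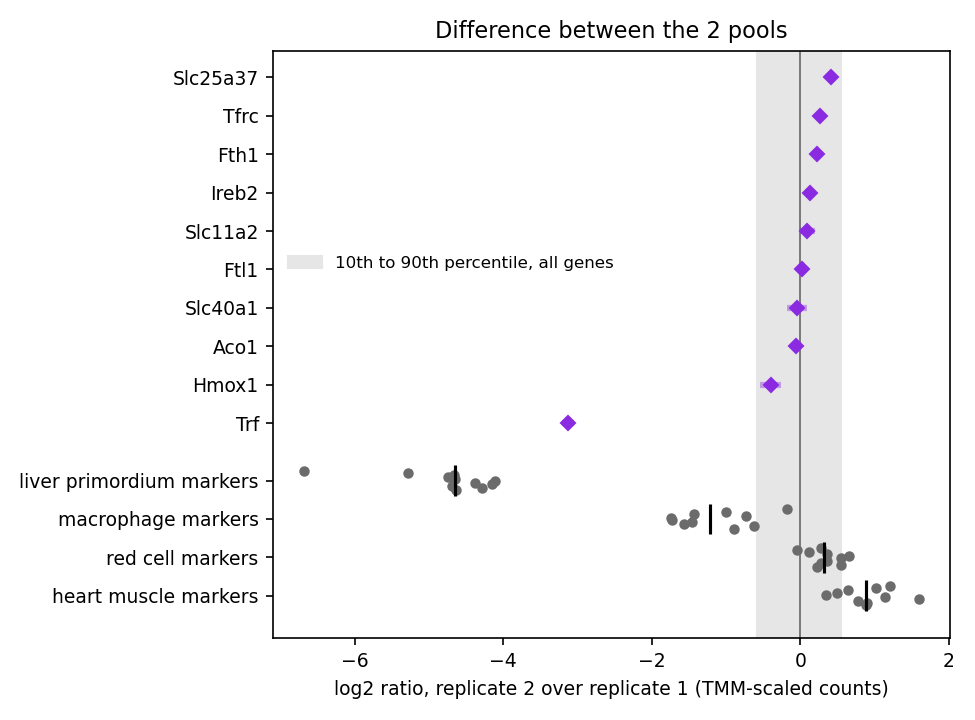
Log2 ratio of replicate 2 over replicate 1 (TMM-scaled expected counts) for each of the 10 iron genes (diamonds, with bars for the 95% counting interval) and for each gene of the marker lists (grey points, with a black bar at the list's median), over a grey band for the 10th to 90th percentile of the 14124 genes with a mean count of at least 50. Trf at -3.13 lies between the macrophage markers, at a median of -1.21, and the liver markers, at a median of -4.64, and the other 9 genes lie between -0.40 and 0.42.

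The transcript tables show which forms of each gene carried the counts. Of the 49 listed transcripts, 40 had counts and 24 reached a mean of 1 TPM. Fth1 and Ireb2 each had a single listed transcript. Ftl1-201 held 97.9% and 98.4% of the TPM of Ftl1, and Aco1-201 and Hmox1-201 held 96.8% ± 0.487 and 99.7% ± 0.398 (SD, n = 2). Tfrc-201, which encodes the receptor, held 63.0% and 64.9% of the TPM of Tfrc, and Tfrc-204, annotated as a retained intron, held 24.9% and 18.7%. Slc25a37-201 held 82.5% and 80.0%, and the retained intron form Slc25a37-203 held 16.7% and 19.0%. Trf-201 held 62.5% and 63.2% in spite of the large difference in level between the pools. Trf-209, a retained intron form of 433 nt, held 22.7% and 20.6% of the TPM of Trf but 3.98% and 3.57% of its expected counts.

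The forms of Slc11a2 bear on the hairpin, since the match lies in the 3′ UTR of Slc11a2-205 alone. Slc11a2-205 held 32.1% and 39.1% of the TPM of the gene and 49.2% and 50.9% of its expected counts. Slc11a2-201, without a match, held 45.6% and 55.0% of TPM but 47.3% and 48.6% of expected counts, so that by counts it lay below Slc11a2-205. In replicate 1 the short forms Slc11a2-203 and Slc11a2-204, named after their values were seen, held 8.80% and 11.3% of TPM on 33.4 and 20.4 expected counts. In replicate 2 they held 0% and 5.93% of TPM. In Slc40a1 the window lay in Slc40a1-201 and in the retained intron forms Slc40a1-202 and Slc40a1-208. Together these held 97.4% and 81.0% of TPM and 99.7% and 97.9% of expected counts. Only in Slc40a1-201 is the window in an annotated 5′ UTR. That form alone held 94.8% and 80.2% of TPM and 97.1% and 96.9% of expected counts. The drop in TPM share went with Slc40a1-205, a form of 370 nt with 0 and 10.5 expected counts that was listed at 12.8% of TPM in replicate 2. In Tfrc the forms with the 4 windows, Tfrc-201 and Tfrc-204, held 87.9% and 83.6% of TPM and 97.1% and 96.9% of expected counts. Of 44 member transcripts with a deposited length, 40 had the same length in the release that was searched. Fth1-201 did not, at 866 nt as deposited and 929 nt in M21, and whether the form counted holds the window was not tested. The others were Ireb2-201 (5808 nt as deposited, 5770 nt in M21), Hmox1-201 (1606 and 1569 nt) and Hmox1-202 (556 and 774 nt). Whether the counted forms of these also lack a match was not tested.

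**Figure D4:**
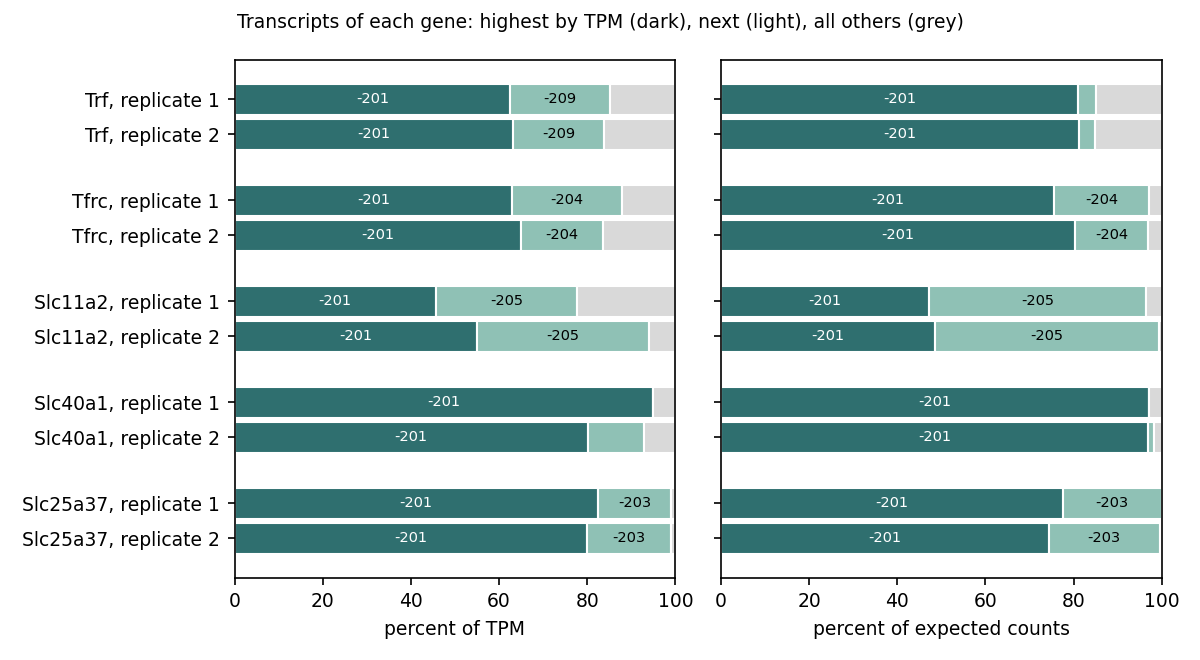
Stacked bars of the percent of TPM (left) and of expected counts (right) held by the transcripts of 5 genes in each library, with the transcript of highest mean TPM dark, the next light and all others grey. Slc11a2 is divided between Slc11a2-201 and Slc11a2-205, and Trf-209 takes 22.7% and 20.6% of TPM but 3.98% and 3.57% of expected counts.

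Around the members, 60 further genes of iron handling were listed by role, of which 48 were detected in both libraries. Ftmt, Hephl1, Cd163, Hamp and Hamp2, named after their values were seen, had no counts in either library. For Hamp, which encodes the hormone hepcidin, 3 counts would be 0.337 and 0.373 TPM, the most that a count of 0 allows here. Of the 55 genes with counts, 35 were higher in replicate 2 and 20 in replicate 1, with a median log2 ratio of 0.09. Of the 17547 genes with a mean count of at least 10, 8690 were higher in replicate 2 and 8857 in replicate 1. With deposited TPM the split of the 55 was 27 and 28, and with spike-in scaling it was 43 and 12. These alternatives moved the median of all genes by -0.10 and 0.32, and the split of all genes under them was not examined. Of the 51 with the mean count of at least 50 that the rule above needs, 2 were higher in replicate 1 and 0 in replicate 2, beside 4.75% and 2.31% of all genes. The other 4 with counts, Steap4, Cp, Hp and Tmprss6, lay below it and were named here after their values were seen.

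Of 4 storage partners, 3 were detected. They were led by Pcbp1, an RNA-binding protein that also delivers iron to ferritin, at 356 and 348 TPM, and Ncoa4, which takes ferritin to the lysosome, at 82.0 and 89.2 TPM. Of 12 genes of the transferrin cycle and uptake, 10 were detected, led by Snx3, a sorting protein of the recycling endosome (283 and 317 TPM), and Mcoln1, a lysosomal channel (46.1 and 53.2 TPM). Steap1, of a family that includes iron reductases, was higher in replicate 1, at 8.89 and 3.42 TPM (log2 ratio -1.28). Steap4, named after its values were seen, had 38 and 3 counts and so a ratio of -3.23 with a counting interval of -5.75 to -1.76.

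Of 4 genes of export and iron oxidation, 2 were detected, which were Heph, a membrane ferroxidase, at 11.6 and 12.5 TPM, and Flvcr1, a heme exporter, at 7.07 and 3.70 TPM. Of 10 genes of heme breakdown and transport, 7 were detected. Blvrb, a biliverdin reductase, stood at 70.1 and 76.6 TPM next to Hmox2. Hpx, hemopexin, the heme scavenger of plasma and a product of liver, was higher in replicate 1, at 6.27 and 0.370 TPM on 263 and 14 counts. Its log2 ratio of -3.94 lay in the direction of Trf and of the liver markers, whose part was not tested.

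All 16 genes of mitochondrial iron and iron-sulfur clusters were detected, and 13 were higher in replicate 2, with a median of 0.29 beside -0.00498 for the 17547 genes with a mean count of at least 10. With deposited TPM 10 were higher in replicate 2, and with spike-in scaling 15. None passed the 2-fold rule. The most abundant were Hspa9, a mitochondrial chaperone (300.4 and 341 TPM), and Glrx5, a cluster-transfer protein (301 and 251 TPM). The summed TPM of the list was 1409 and 1522. Heart muscle markers, with a median of 0.89, lay in the same direction, and their part was not tested.

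Of 14 sensors and regulators, 10 were detected. Among the abundant ones was Hif1a, a hypoxia-inducible transcription factor, at 115 and 165 TPM. Its log2 ratio was 0.62, on the side of replicate 2, without passing the 2-fold rule. Tmprss6, the protease that restrains hepcidin in liver and was named after its values were seen, had 96 and 3 counts and a ratio of -4.55 with a counting interval of -7.05 to -3.16.

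**Figure D5:**
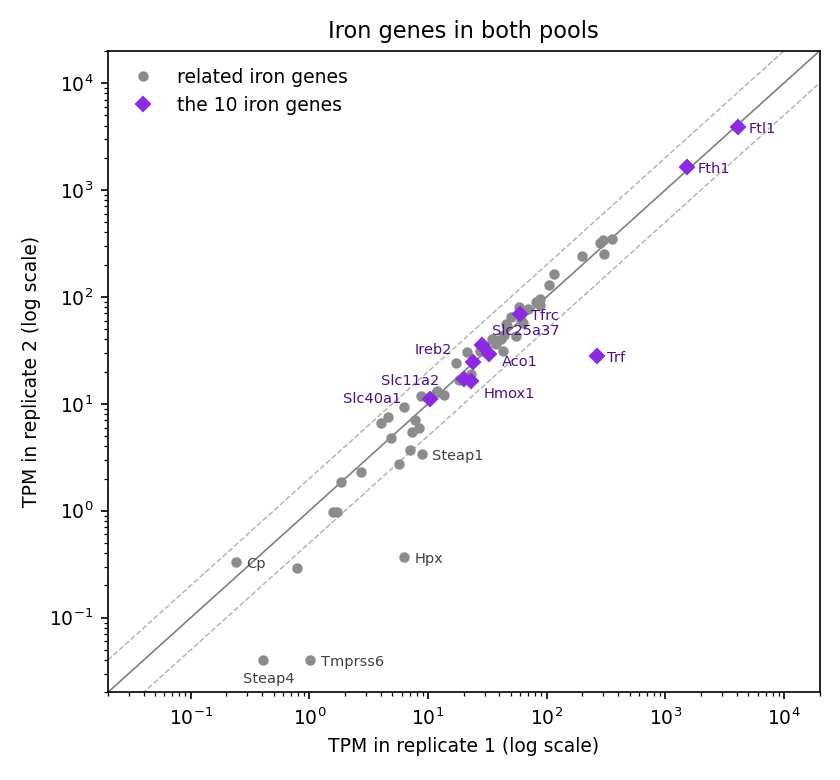
TPM in replicate 1 against TPM in replicate 2 for the 10 iron genes (diamonds) and the related iron genes shown with counts in both libraries (grey points), both axes on a log scale, with a line of equality and dashed lines at 2-fold. Trf (264.6 and 28.0 TPM) and Hpx (6.27 and 0.370 TPM) lie far below the line, and the ferritins lie close to it.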

How the data were processed

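Per the deposited tables, the authors gave an expected count (estimated reads, not normalised), a posterior mean count, TPM and FPKM for each gene and transcript. The bounds of the deposited TPM interval count as a score here. For transcripts, the authors also deposited IsoPct, the percent of TPM within the gene. TPM is scaled over all 69691 features, spike-ins included. The bounds go with the posterior mean, so a TPM can lie outside them. The assembly was mm10 and the annotation M4, per the description deposited with the files. The quantifier and its version, and the use of strand, were not given in the sources used here; counts of overlapping genes and near-identical copies are therefore uncertain. The labels link a manual of a SMARTer Ultra Low kit.

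Names and positions came from GENCODE M21, which matched 42462 of 43346 mouse genes. Expected counts were rounded and scaled by TMM (edgeR 4.0.16, R 4.3.3), and log2 ratios used a prior count of 0.5. DESeq2 1.42.0 size factors, deposited TPM, ERCC scaling, posterior mean counts and a prior count of 2 were alternatives. Levels were compared by TPM without a pseudocount and, as alternatives, by FPKM, posterior mean TPM, expected counts and TPM plus 1. Total counts were 45205713 and 41070978. Intervals and the floor of 3 counts cover counting error only, since no molecular identifiers are recorded that would mark independent molecules. Named genes were all members, the 2 most abundant of each list, genes in a pair and genes past the 2-fold rule. Overlapping or copied features with at least 50 counts in a library were named too. So were the 2 leading transcripts of each member, except that only the leading transcript of Ftl1, Aco1 and Hmox1 is named. A related gene and its pair with a member are not reported here. The members and lists were chosen with earlier results of these data known. Hairpins were searched in M21 transcript sequences.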

Additional observations from a re-analysis of the deposited data

How the results depend on the processing

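All 10 members were detected in both libraries at 0.1, 1 and 5 TPM and at an FPKM of 1. FPKM is nearly proportional to TPM within a library, and leaving out either of 2 libraries moves a mean by a fixed part of its SD, so neither bears on stability. Of the other 27 alternative values of the 9 gene pairs, 17 moved by less than 1 SD between the pools, 9 moved by more and 1 changed sign. That SD ran from 0.08 for Tfrc over Slc40a1 to 2.62 for Trf over Cp, so the tally depends on each pair's SD. Trf over Cp, at 6.09 with a pseudocount of 1 TPM against 8.26, was among the 17. By expected counts the log2 ratio was -1.52 for Fth1 over Ftl1, 5.16 for Tfrc over Tfr2, 3.005 for Tfrc over Slc40a1, 3.78 for Slc25a37 over Slc25a28 and 2.20 for Slc11a2 over Slc39a14, and it changed sign to -0.29 for Aco1 over Ireb2, since counts are not divided by length. Posterior mean TPM gave 2.40 for Tfrc over Slc40a1 and 1.38 for Slc11a2 over Slc39a14. A pseudocount of 1 TPM gave 4.22 for Tfrc over Tfr2 and 2.48 for Tfrc over Slc40a1. Of the ratios between pools, deposited TPM changed the sign of Ftl1 (-0.084), Slc11a2 (-0.23) and Slc40a1 (0.094), and spike-in scaling that of Slc40a1 (0.28) and Aco1 (0.27). The median of all genes moved by -0.10 with deposited TPM, about the move of Ftl1. Spike-in scaling uses the same factor for all genes of a library. It therefore moved Slc40a1 and Aco1 by the same 0.32 as the median, and that match says nothing about these genes. The effective length that TPM is divided by was 2825 and 3313 in replicates 1 and 2 for Slc11a2, and 3195 and 2708 for Slc40a1. The part of these lengths in the turns of Slc11a2 and Slc40a1 with deposited TPM was not tested. The number of genes different between the pools was 997, and it was 1632 with no count minimum and 2308 at 1.5-fold. The hairpin search gave 4 members, and 5 with the extra base. No paired analysis was possible because there is 1 group. The 2 libraries limit every SD, and low counts limit Cp, Hpx, Steap4 and Tmprss6.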
